A study of Papio hamadryas with 11 samples.

Results

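The miR-17-92 and miR-106b-25 clusters are a pair of related microRNA (miRNA) genes, each read as 1 transcript that yields several short regulatory RNAs. Their mature products were picked by name in the deposited table of known miRNAs, which gave 10 members of 1921 mature names. The members were 6 products of miR-17-92 (hsa-miR-17-5p, hsa-miR-18a-5p, hsa-miR-19a-3p, hsa-miR-20a-5p, hsa-miR-19b-3p and hsa-miR-92a-3p) and 4 of miR-106b-25 (hsa-miR-106b-5p, hsa-miR-106b-3p, hsa-miR-93-5p and hsa-miR-25-3p). The prefix hsa stands for the human names of the table and is left out below. Reads were found for 645 names in all, 218 names had enough reads to be tested, and all 10 members were among those.

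The study sequenced small RNA of 11 near-term fetal livers of the baboon Papio hamadryas, taken when 0.9 of gestation had passed. The MO group was 5 fetuses of obese mothers (3 female, 2 male) and the CON group was 6 fetuses of control mothers (3 female, 3 male). The labels give neither the diet nor the weight of the mothers. Nothing in them ties a sample to a numbered animal, and the p-values below rest on the spread from sample to sample. Livers are called below by group and replicate number, as in MO 3 or CON 4.

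The libraries held 660569 to 767137 miRNA reads in MO livers and 247288 to 319919 in CON livers. Library numbers ran from 67 to 71 in MO and from 55 to 60 in CON, so in every value below maternal obesity, depth and the library series cannot be told apart. The hepatocyte marker miR-122-5p stood at 103666 to 184492 CPM (reads scaled to a common library total, after TMM scaling) in MO and 139041 to 212521 CPM in CON. CON 4, a male, stood apart from the other libraries. It lay outside its group's range by Dixon's criterion in 24 of 218 tested miRNAs (11.01%), against 0 to 6 in each other liver, and results that rest on it are given with and without it.

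Products of these transcripts are sorted by their seed, the short stretch near the 5′ end that selects target messages. miR-17-5p, miR-20a-5p, miR-93-5p and miR-106b-5p form the miR-17 class, known for repressing the cell cycle inhibitor p21. miR-19a-3p and miR-19b-3p form the miR-19 class. miR-92a-3p and miR-25-3p form the miR-92 class, miR-18a-5p has a seed class of its own, and miR-106b-3p, from the opposite arm of the miR-106b hairpin, belongs to none of these classes. The miR-17-92 host transcript is activated by MYC and E2F factors, and miR-106b-25 lies in an intron of the replication licensing gene MCM7. In mice miR-17-92 is needed for B cell development, which takes place in fetal liver. Members of one class are close in sequence and how the authors' counting shared such reads is not given in the sources used here, so the split of reads within a class is uncertain.

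Mature miRNAs are of near equal length, so their CPM levels are set side by side without scaling by length. The order below is an order of reads. Whether different miRNAs are read in equal proportion to their amounts was not tested. A single product, miR-92a-3p, held most reads of both clusters. It stood at 19445, 17242, 23404, 19644 and 23343 CPM in MO 1 to 5, and in CON livers the lowest, median and highest were 19152, 22427 and 23350 CPM. The groups overlapped and no liver was far from the others. Its mean over all livers was 21242 CPM, rank 9 of all names and 14.2 times that of miR-25-3p, the next member. miR-92a-3p matures from precursors in miR-17-92 and in the X-linked paralogue cluster, so its reads cannot be assigned to one transcript. The same holds for miR-19b-3p.

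miR-25-3p, the miR-92 class product of miR-106b-25, stood at 1349.6, 1245.1, 1523.5, 1314.4 and 1519.4 CPM in MO 1 to 5. In CON livers its lowest, median and highest were 1280.5, 1627.5 and 1812.6 CPM. Of the 5 MO livers, 5 were below the CON median, and the groups overlapped. miR-19b-3p followed at 797.1, 709.6, 944.7, 1031 and 1191.3 CPM in MO 1 to 5, with a CON range of 742.8 to 5051.7 and a CON median of 875.7 CPM. miR-25-3p exceeded miR-19b-3p in 10 of 11 livers, with CON 4 as the exception.

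The middle of the order was held by the miR-17 class and miR-19a-3p. miR-93-5p averaged 438.1 ± 59.5 CPM in MO and 454.8 ± 52.0 in CON (SD, n = 5 and 6). miR-20a-5p averaged 354 ± 41.3 CPM in MO and 349.2 ± 55.2 in CON, and miR-17-5p 300.5 ± 38.0 in MO and 339.3 ± 46.7 in CON. miR-20a-5p and miR-17-5p, of 1 transcript and 1 seed class, were not clearly ordered: miR-20a-5p was the higher in 8 of 11 livers, 5 of 5 MO and 3 of 6 CON, and their overall means differed by a ratio of 1.09. miR-93-5p was above miR-20a-5p, and miR-17-5p above miR-19a-3p, in 10 of 11 livers each.

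The 3 lowest members were near the limit of the depth. miR-106b-3p averaged 56.9 ± 11.3 CPM in MO and 75.2 ± 13.5 in CON, miR-106b-5p 53.7 ± 5.51 in MO and 73.8 ± 12.5 in CON, and miR-18a-5p 50.7 ± 10.4 in MO and 63.2 ± 26.0 in CON. They rested on 28 to 49 reads per MO liver and 10 to 30 per CON liver. The opposite arms of the miR-106b hairpin could not be ordered, with miR-106b-3p higher in 6 of 11 livers, nor could miR-106b-5p and miR-18a-5p (7 of 11).

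**Figure D1:**
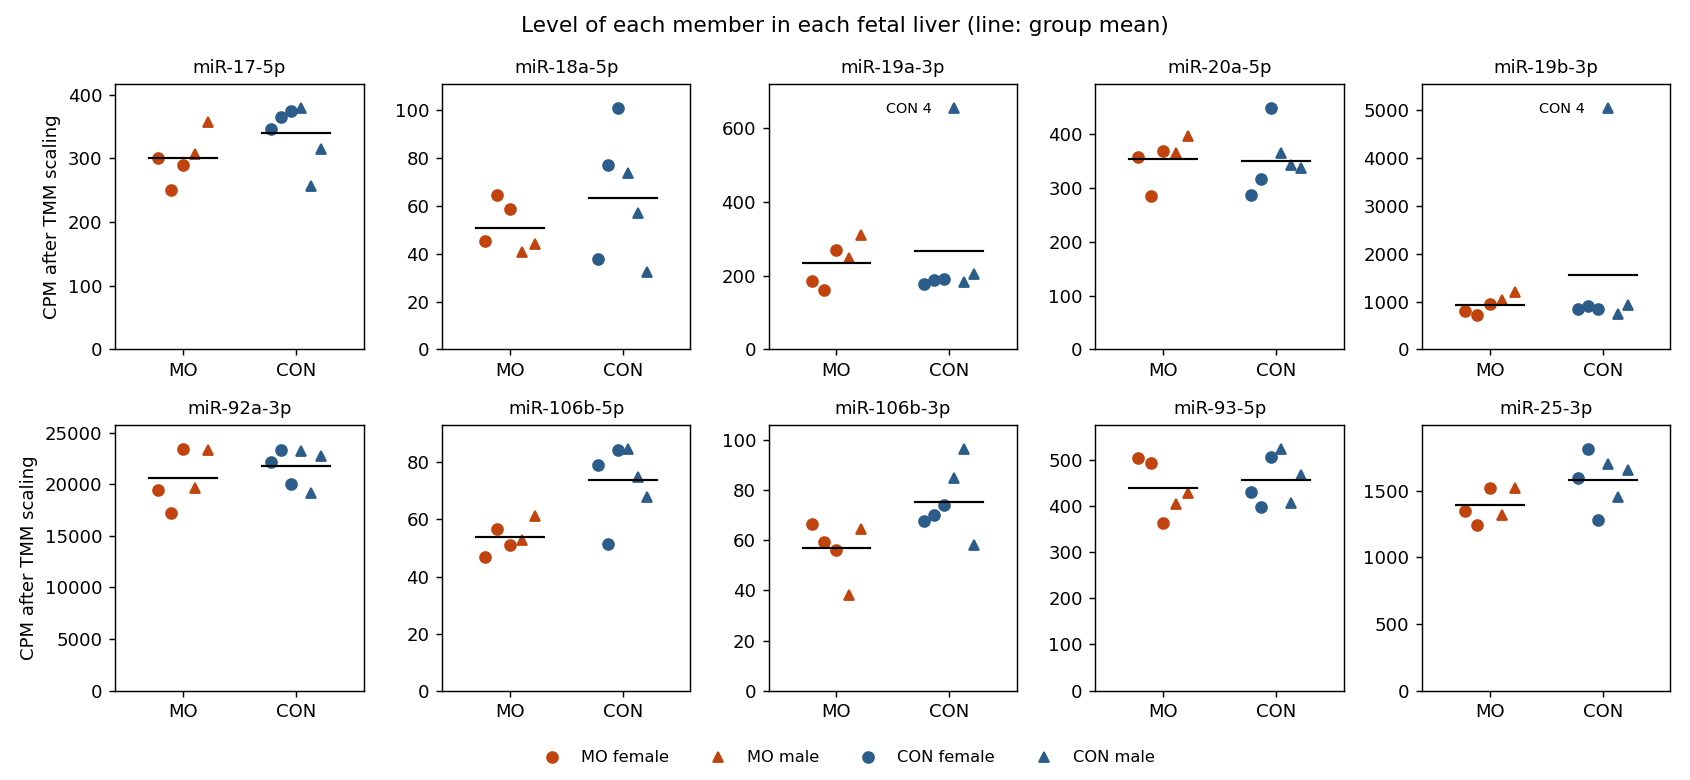
Level of each member (CPM after TMM scaling) in every liver, 1 panel per member with its own linear axis from 0, MO livers left of CON livers. Points are livers (circles female, triangles male) and lines are group means; the CON 4 points of miR-19a-3p and miR-19b-3p (655.4 and 5051.7 CPM) lie above all other livers.

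The members of miR-17-92 together held 2.24% ± 0.289 of miRNA reads in MO livers and 2.44% ± 0.433 in CON livers (SD, n = 5 and 6). Those of miR-106b-25 held 0.193% ± 0.0124 in MO and 0.219% ± 0.0272 in CON. The miR-17-92 shares count all reads of miR-92a-3p and miR-19b-3p, although these cannot be assigned to 1 transcript. Within miR-17-92 so counted, the miR-92 class made up 91.7% ± 0.706 of reads in MO and 89.9% ± 5.86 in CON, and 92.3% ± 0.736 in CON without CON 4. The miR-17 class made up 2.92% ± 0.211 in MO and 2.86% ± 0.449 in CON. The miR-19 class made up 5.17% ± 0.648 in MO and 6.93% ± 6.01 in CON, and 4.48% ± 0.196 in CON without CON 4. The members' mean levels stood in the same order in both groups. Within miR-106b-25 miR-25-3p held 71.6% ± 3.73 of reads in MO and 72.2% ± 3.91 in CON, and the miR-17 class pair held 25.4% ± 3.51 in MO and 24.3% ± 3.59 in CON.

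Among the members, CON 4 lay outside its group by Dixon's criterion in the miR-19 pair and in no other member. miR-19b-3p stood at 5051.7 CPM there, 5.92 times the median of the other CON livers, whose range was 742.8 to 923.2 CPM. miR-19a-3p stood at 655.4 CPM, 3.48 times the median of the others (177 to 204.1 CPM). The other 8 members of CON 4 were 1.05 to 1.28 times that median, among them miR-17-5p and miR-20a-5p, which lie on the transcript of miR-19a-3p.

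Counting error was small beside this gap. miR-19b-3p took 1372 of 247288 reads in CON 4, 0.555% with a 95% exact binomial interval of 0.526 to 0.585%, which covers counting error only. Among the 218 tested miRNAs miR-19b-3p ranked 2 and miR-19a-3p 5 by their excess over the other CON livers, behind miR-4485 (9.41-fold). Beside them stood miR-382-3p (rank 3, 5.09-fold), miR-656 (rank 4, 3.79-fold) and miR-141-3p (rank 6, 3.47-fold). At the low end miR-15b-5p ranked 218, at 0.212 times the median of the other CON livers. miR-4485, miR-382-3p, miR-656 and miR-15b-5p are named here after their values were seen. Over the whole library 44 of 218 miRNAs (20.18%) differed from the CON median by more than 1 log2 unit. The part of that library-wide shift in the miR-19 levels was not tested.

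**Figure D2:**
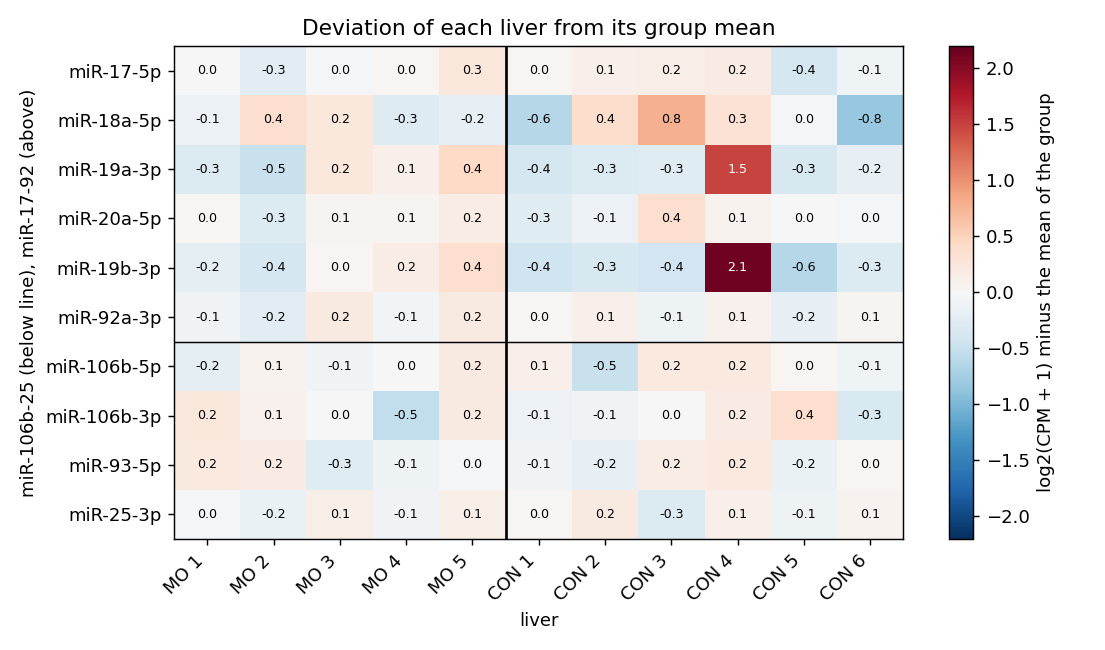
Deviation of each member from its group mean in log2(CPM + 1), per liver, MO livers to the left and CON livers to the right; colour runs from below to above the mean. CON 4 stands 2.14 above the CON mean in miR-19b-3p and 1.49 in miR-19a-3p, and between 0.0757 and 0.325 above it in the other 8 members.

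No member passed the threshold between MO and CON livers. In edgeR's quasi-likelihood test over all 218 miRNAs, at an adjusted p of 0.05, 0 of 10 members were called, against 11% of all tested miRNAs (24 of 218). Of all tested miRNAs 4.59% were higher (10) and 6.42% lower (14). At an unadjusted p of 0.05 the count was 1 of 10 members against 23.4% of all tested. DESeq2 called 0 of 9 members with 0 at the unadjusted level, and gave no p for miR-19b-3p. limma-voom called 0 of 10 with 1 at the unadjusted level. The groups overlapped in 10 of 10 members, while 8.26% of tested miRNAs did not overlap.

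The member at the unadjusted level was miR-106b-5p. It stood at 46.8, 56.7, 51.0, 52.9 and 61.2 CPM in MO 1 to 5, against a lowest, median and highest of 51.6, 77.0 and 84.7 CPM in CON livers. Its CON range was open at the low end through CON 2, and the other 5 CON livers lay above all 5 MO livers. The log2 change was -0.46 (SE 0.18, 95% interval -0.84 to -0.069), with an edgeR adjusted p of 0.143. Leaving out each liver in turn gave log2 changes of -0.53 to -0.37. The interval crossed 0 without MO 1, MO 3, MO 4 or CON 3, with upper ends of 0.061, 0.0045, 0.034 and 0.027. Its replicate spread was 10.2% of the mean in MO, where counting 31 to 43 reads alone gives 16.2%, and 17% in CON, where counting 14 to 25 reads alone gives 21.9%.

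The opposite arm, miR-106b-3p, stood at 66.4, 59.4, 56.2, 38.0 and 64.4 CPM in MO 1 to 5, with 58.3, 72.1 and 96.4 CPM as the lowest, median and highest in CON livers. The log2 change was -0.40 (SE 0.20, interval -0.84 to 0.029, edgeR adjusted p = 0.235). The other products of the transcript had log2 changes of -0.19 for miR-25-3p (interval -0.44 to 0.068) and -0.055 for miR-93-5p (interval -0.34 to 0.23), with edgeR adjusted p-values of 0.358 and 0.847.

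In miR-17-92 the narrowest interval was that of miR-92a-3p, at log2 -0.078 (SE 0.11, interval -0.31 to 0.15). miR-20a-5p had a log2 change of 0.018 (interval -0.29 to 0.32) and miR-17-5p -0.18 (interval -0.48 to 0.13). miR-18a-5p, which has a seed class of its own, stood at 45.3, 64.6, 58.8, 40.7 and 44.0 CPM in MO 1 to 5 and between 32.4 and 101.1 CPM in CON, a log2 change of -0.31 (interval -0.90 to 0.27). The median SE over the members was 0.16 on the log2 scale, and a p that missed the threshold does not show equal levels: changes inside these intervals, several times that SE for the scarce members, could be missed.

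The direction for the miR-19 class was set by CON 4. With all livers miR-19b-3p had a log2 change of -0.73 (SE 0.46) and miR-19a-3p of -0.18 (SE 0.33), with edgeR adjusted p-values of 0.358 and 0.832. Without CON 4 the values were 0.12 (SE 0.14, adjusted p = 0.625 in edgeR) and 0.30 (SE 0.18, adjusted p = 0.310 in edgeR). The MO levels of miR-19a-3p were 185.7, 162.2, 269.2, 246.9 and 309.2 CPM, the last 3 above every CON liver but CON 4.

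Of the 10 members, 9 had a negative log2 change, against 56.4% of all tested miRNAs, with a median of -0.18 against -0.050. Without CON 4 this was 7 of 10 against 55.4%. The members share transcripts and libraries, so their signs are not independent.

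**Figure D3:**
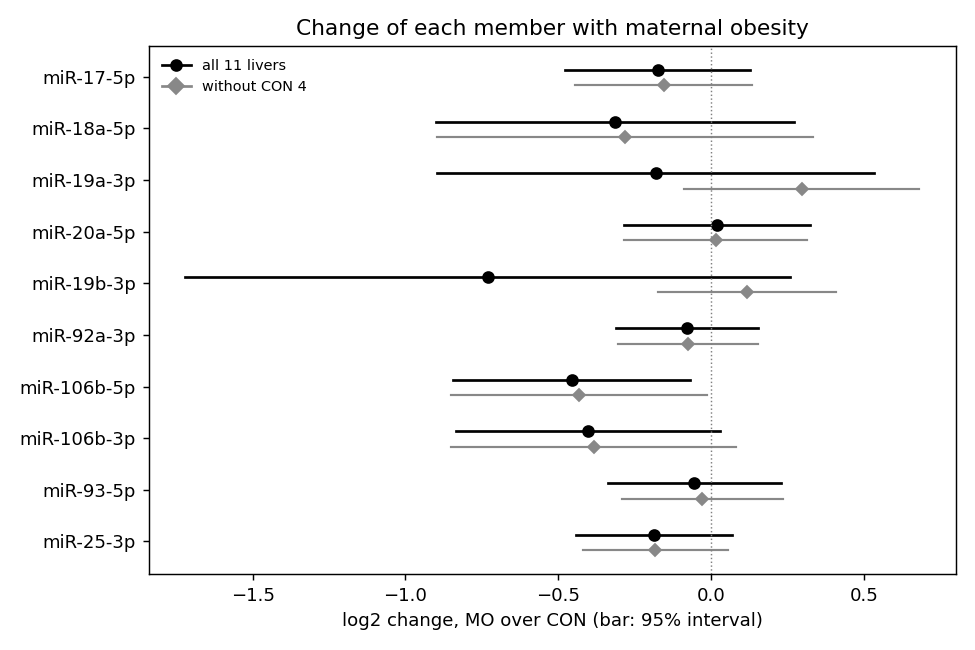
log2 change of each member, MO over CON, from edgeR, with 95% intervals, for all 11 livers (circles) and without CON 4 (diamonds). The estimates of the miR-19 pair lie on the other side of 0 when CON 4 is left out, and the interval of miR-106b-5p lies wholly below 0 in both fits.

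Products of 1 transcript share their transcription, so ratios between them were compared too. For 12 ratios, each log2((a + 0.5)/(b + 0.5)) of raw reads, MO and CON livers were compared with a two-sided exact permutation test over every split of the livers into groups of 5 and 6, whose smallest p is 0.00216. None of the 12 passed after Benjamini-Hochberg adjustment, and 1 did without it. That was miR-19a-3p over miR-19b-3p, which averaged -2.01 ± 0.13 in MO and -2.29 ± 0.33 in CON (difference 0.29, exact p = 0.0433, adjusted 0.519), with CON 4 the lowest at -2.94. Without CON 4 the difference was 0.16 (exact permutation test, adjusted p = 0.222). The ratio with the smallest spread was miR-25-3p over miR-92a-3p, of different transcripts but 1 seed class, at -3.88 ± 0.065 in MO and -3.79 ± 0.097 in CON (difference -0.099, exact p = 0.0887, adjusted 0.533).

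The following ratios between products of 1 transcript were wider, but each held a member with fewer reads than miR-25-3p. In CON livers counting alone gives a spread of 1.28% of the mean for miR-92a-3p and 4.74% for miR-25-3p. For miR-93-5p, miR-20a-5p, miR-17-5p and miR-106b-5p it gives 8.82%, 10.05%, 10.2% and 21.9%. The part of counting in the wider ratios was not tested. miR-93-5p over miR-25-3p averaged -1.67 ± 0.30 in MO and -1.79 ± 0.28 in CON, and miR-106b-5p over miR-25-3p -4.68 ± 0.18 in MO and -4.40 ± 0.40 in CON. miR-20a-5p over miR-17-5p averaged 0.24 ± 0.077 in MO and 0.040 ± 0.27 in CON (difference 0.20, exact permutation p = 0.156, adjusted 0.565). It was above the CON mean in 5 of 5 MO livers, and the groups overlapped. All 12 differences lay between -0.28, for miR-106b-5p over miR-25-3p, and 0.29.

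**Figure D4:**
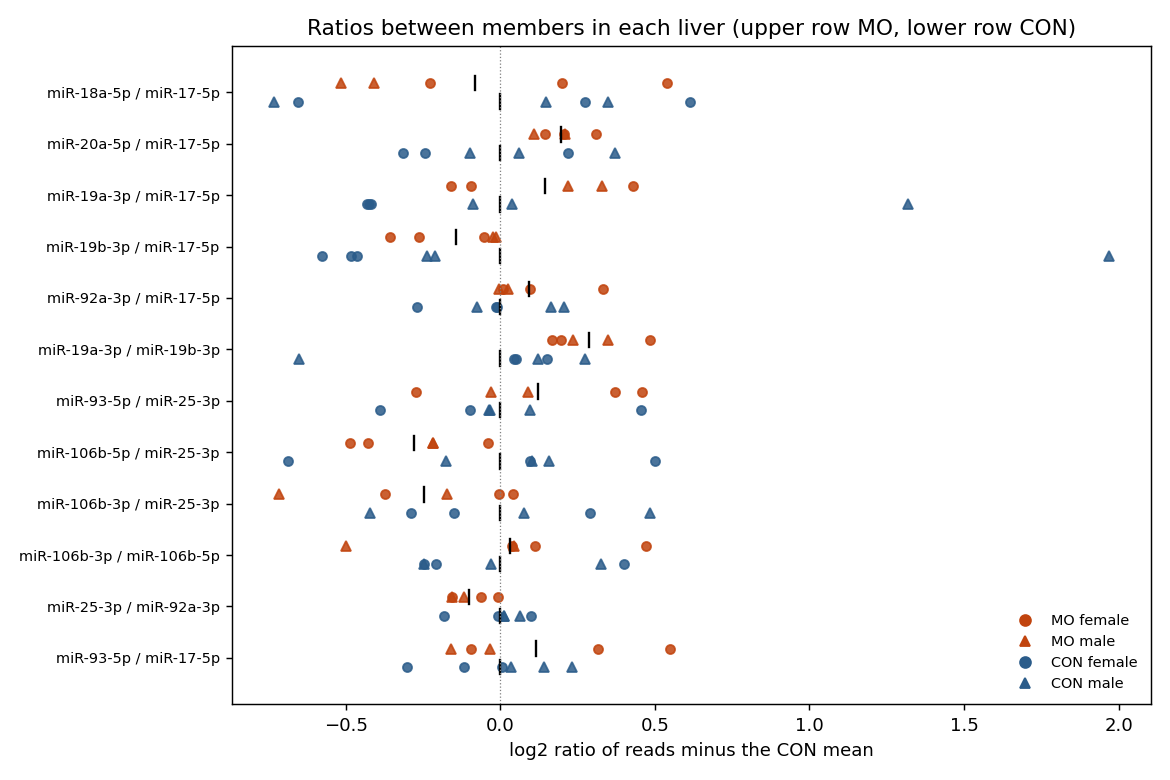
The 12 log2 ratios of reads between members, each minus its CON mean, 1 point per liver (circles female, triangles male), with MO livers above CON livers and a tick at each group mean. miR-25-3p over miR-92a-3p has the smallest spread (SD 0.065 in MO and 0.097 in CON), and CON 4 is the extreme liver in the ratios with a miR-19 member.

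Members also varied from liver to liver within the groups, and the closest pairs were each of 1 seed class. Deviations from the group mean in log2(CPM + 1) were correlated over the 11 livers for the 45 pairs of members, with 100000 permutations and adjustment over 45. The points share library and depth. The pairs that passed were the miR-19 pair and the miR-92 class pair. The miR-19 pair is also counted here in 1 transcript, so its r cannot separate seed class from transcript. The split of reads within a class is uncertain, as stated above, and its part in these r was not tested. No pair within the miR-17 class passed. Their r ran from 0.098 (miR-17-5p with miR-106b-5p, adjusted permutation p = 0.809) to 0.47 (miR-17-5p with miR-20a-5p, adjusted permutation p = 0.651). In CON livers counting alone gives miR-106b-5p a spread of 21.9% of the mean, where 16.98% was measured. For miR-93-5p, miR-17-5p and miR-20a-5p it gives 8.82%, 10.2% and 10.05%, where 11.4%, 13.75% and 15.8% were measured. For miR-92a-3p and miR-25-3p it gives 1.28% and 4.74%, where 8.08% and 12.02% were measured. Counting error thus limits r in the miR-17 class, and these pairs cannot decide whether a shared seed class goes with close variation throughout.

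miR-19a-3p and miR-19b-3p had r = 0.975 (permutation p = 0.00013, adjusted 0.00585) and rho = 0.864 (permutation p = 0.00147, adjusted 0.0331). Without the 2 livers farthest from the median, CON 4 and MO 5, r was 0.846. miR-92a-3p and miR-25-3p, from different transcripts, had r = 0.858 (permutation p = 0.00086, adjusted 0.0194) and rho = 0.936 (permutation p = 0.00011, adjusted 0.00495). Here r was 0.869 without MO 2 and CON 5, the farthest livers, and 0.850 without CON 4.

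miR-25-3p had no such relation past the threshold with the other products of its own transcript. Its r was -0.42 with miR-93-5p, -0.43 with miR-106b-5p and -0.054 with miR-106b-3p, with adjusted permutation p-values of 0.651, 0.651 and 0.875. The median r was 0.37 over 15 pairs within miR-17-92, 0.081 over 6 pairs within miR-106b-25 and 0.14 over 24 pairs of different transcripts. Leaving out CON 4 gave 0.46, 0.011 and 0.0022. A difference between those medians was not tested.

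**Figure D5:**
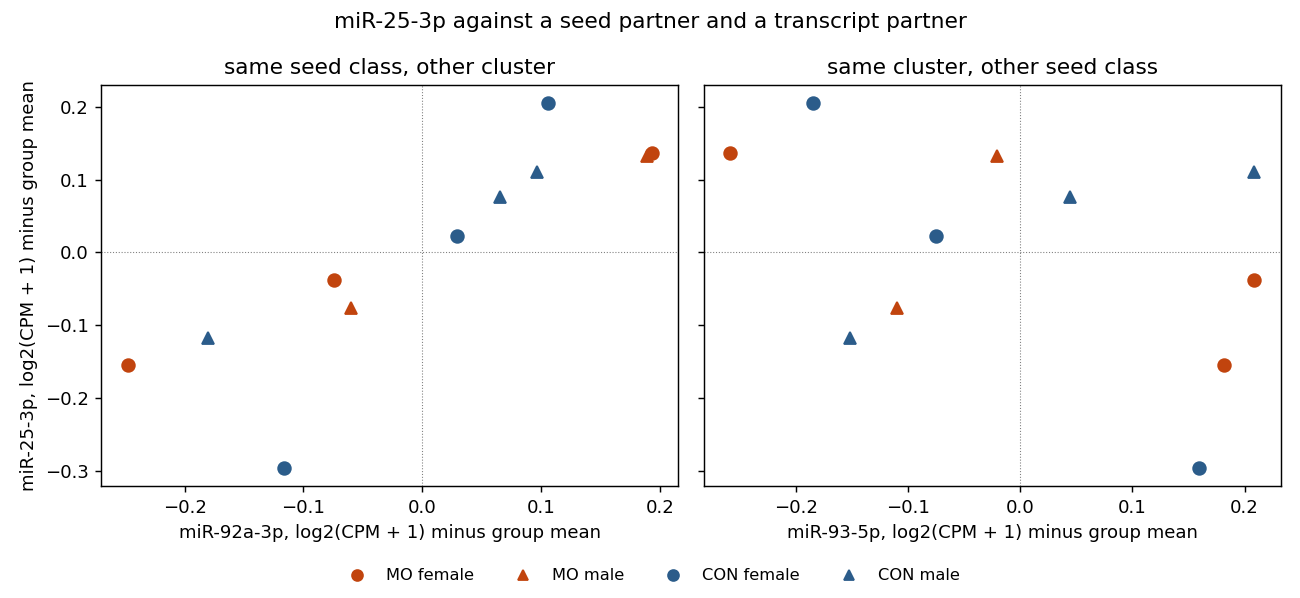
Deviation of miR-25-3p from its group mean (log2(CPM + 1)), per liver, against that of miR-92a-3p of the other cluster and of miR-93-5p of its own. Points are livers (circles female, triangles male). The points of miR-92a-3p rise with miR-25-3p (r = 0.858) and those of miR-93-5p do not (r = -0.42). In CON livers counting alone gives a spread of 1.28% of the mean for miR-92a-3p and 8.82% for miR-93-5p.

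Beyond the members, miR-146a-5p, which dampens inflammatory signalling, was the tested miRNA most like miR-25-3p (r = 0.761, rho = 0.736, rank 2 of 217 after miR-92a-3p) over the 11 livers, and r was 0.624 without the 2 livers farthest from the median. Next came miR-377-3p (r = 0.599) and miR-136-3p (r = 0.574). For miR-92a-3p the closest were miR-146a-5p (r = 0.591, and 0.490 without the 2 farthest livers), miR-30e-3p (r = 0.562) and let-7c (r = 0.546), behind miR-25-3p and miR-17-5p. These are descriptions without a test.

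By fetal sex, no member passed in either sex. In females 0 of 10 members were called in edgeR, against 5.96% of all tested, and in males 0 of 10, against 4.13%, with 0 members in each sex at the unadjusted level (19.3% of all tested in females and 18.8% in males). The difference between the sexes in the effect of maternal obesity called 0 members, against 0% of all tested, and 0 members at the unadjusted level, against 6.42%. The member with the smallest p for it was miR-17-5p, at log2 -0.37 (SE 0.18) in females and 0.065 (SE 0.20) in males, a difference of 0.44 (SE 0.27, edgeR adjusted p = 0.584). For miR-106b-5p the log2 changes were -0.48 in females and -0.41 in males. For miR-19b-3p in males the log2 change was -1.01 (SE 0.62, edgeR adjusted p = 0.376), and 0.38 (SE 0.18, edgeR adjusted p = 0.267) without CON 4.

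Males against females, with maternal condition in the model, called 0 of 10 members, against 0% of all tested, and 2 of 10 at the unadjusted level, against 10.1%. These were the miR-19 pair, at log2 0.67 for miR-19a-3p (SE 0.30) and 0.96 for miR-19b-3p (SE 0.41), each with an edgeR adjusted p of 0.450. CON 4 is a male, and without it the values were 0.30 and 0.24, with edgeR adjusted p-values of 0.563 and 0.511.

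The other arms and the paralogues were scarce. Of 8 further arms of the clusters' hairpins, miR-17-3p was tested, at 44.0 ± 7.60 CPM in MO and 42.1 ± 10.7 in CON (log2 0.057, edgeR adjusted p = 0.899), and the other 7 had 0 to 5 reads per liver. None of 10 names of the X-linked miR-106a-363 cluster was tested. miR-363-3p, its miR-92 class product, had 10 to 16 reads in MO livers and 1 to 8 in CON livers, which is 15.7 to 21.1 CPM in MO and 3.68 to 25.9 CPM in CON. miR-106a-5p had 0 to 6 reads per liver, and 6 of the 10 names had 0 in all livers.

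Since fewer cells of a type and less RNA per cell cannot be told apart in whole liver, levels of cell type marker miRNAs are given. The 4 erythroid markers, miR-451a and miR-486-5p among them, summed to 7301.8 to 14681 CPM in MO and 7066.3 to 16724 in CON, and 0 of 4 passed. The 5 leukocyte markers summed to 925.9 to 1224.3 CPM in MO and 1107 to 1982.4 in CON, and 1 of 4 tested fell, miR-146a-5p (log2 -0.66, edgeR adjusted p = 0.0117). Mesenchymal markers summed to 90074 to 129123 CPM in MO and 75861 to 92576 in CON, with 0 of 4 passing, and endothelial markers to 12643 to 17097 CPM in MO and 9475.7 to 14290 in CON, where miR-126-5p rose (log2 0.46, edgeR adjusted p = 0.0476) and miR-126-3p did not pass. Of the 3 hepatocyte markers miR-885-5p fell, at 43.95 to 93.6 CPM in MO and 136 to 184.2 CPM in CON with no overlap (log2 -1.01, edgeR adjusted p = 0.0037), and miR-122-5p and miR-122-3p did not pass. Of biliary markers 0 of 4 passed. Muscle markers, untested, summed to 957.6 CPM in MO 2, 21.97 to 95.11 CPM in the other MO livers and 14.28 to 67.78 CPM in CON. No marker was at 0 in all livers, and the part of cell makeup in the member values was not tested.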

How the data were processed

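Small RNA libraries of 11 baboon fetal livers were made with the Illumina TruSeq kit and read as single ends, per the labels' protocols. Per the file headers, the authors deposited unscaled counts of reads for each pair of mature miRNA and precursor, and scaled columns (a signal); the scaled values differed from CPM of the counts by at most 0.005 and were used for that check alone. The submitters' processing notes name the build hg18, and the names are human. Baboon reads were thus assigned to human miRNAs. For the aligner and its tolerance of mismatches, the settings are not given in the sources. The table's 2234 rows stand in it a second time as an identical copy, and each row was used 1 time. For a name on several precursors, the row of highest total stood for it (313 rows dropped). For miR-19b-3p the lower row held a median of 99.62% of the higher over livers, and for miR-92a-3p 86.22%. A table of predicted miRNAs was not used.

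MO and CON livers were compared in edgeR 4.0.16 (R 4.3.3; quasi-likelihood test, TMM scaling, default expression filter; 218 of 645 names with reads kept), with Benjamini-Hochberg adjustment over all 218 and a threshold of 0.05. Sex comparisons used a mean for each condition and sex, or condition plus sex. limma 3.58.1, DESeq2 1.42.0 and the alternatives below were also run. Ratios and correlations used Python 3.11.15 with SciPy 1.17.1. The scripts were tested on simulated data. The named miRNAs were the 10 members, the other arms, the paralogues, cell type markers and, for the most abundant member of each cluster, the 3 other tested miRNAs most correlated with it. Members, lists and tests were chosen with earlier results of these data known. Matching other miRNAs by seed was planned but not done, as mature sequences were not used here. The replicate numbers do not pair the samples.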

Additional observations from a re-analysis of the deposited data

Results flagged for a closer look

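In CON 4, the liver of a male control fetus, miR-19b-3p (5051.7 CPM) and miR-19a-3p (655.4 CPM) lay farther from the other 5 control livers than Dixon's 95% criterion allows. The same liver was set apart in 3 ratios of reads: log2 of miR-19b-3p over miR-17-5p was 3.73, of miR-19a-3p over miR-17-5p 0.79, and of miR-19a-3p over miR-19b-3p -2.94. These 5 values share the miR-19 reads of 1 library and are not independent. Chance sets apart about 1 in 20 groups by this criterion, with any liver of the group counted. CON 4 alone was set apart in 11.01% of the 218 tested miRNAs, and each other liver in 0 to 2.75%. The 1 in 20 rate assumes normal values, which was not checked for these CPM. The miRNAs of 1 library are also not independent, so the rates do not decide about chance. The part of its library as a whole in the miR-19 values was not tested.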

How the results depend on the processing

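Members called between MO and CON stayed at 0 of 10 under each of 22 alternatives: other scaling (RLE, total counts), no filter, DESeq2, limma-voom, sex as a covariate, the replicate block, thinning to 247288 reads, other handling of precursor rows, the most abundant miRNA left out, and each liver left out. In DESeq2 this covers 9 members, since miR-19b-3p had no p there. Ratios past the threshold stayed at 0 of 12 under 14 alternatives, and the replicate block, whose smallest p is 0.0625 over 5 pairs, could call none. The replicate numbers do not pair the samples (same-numbered livers correlated between -0.16 and 0.30, and 1 of 5 MO livers correlated best with its own number). With the replicate block 15 miRNAs were called, against 24 without it, and the log2 difference for miR-106b-3p over miR-106b-5p was -0.016. Without the filter miR-93-5p had a log2 change of 0.017, 1 member was called in males (miR-19b-3p, log2 -0.97, edgeR adjusted p = 0.00663) and 2 in males against females (miR-19b-3p and miR-19a-3p, log2 1.03 and 0.74, edgeR adjusted p = 2.193e-07 and 0.0329). In an alternative added after the data were seen, no filter and no CON 4, 0 members were called in either comparison. Leaving out each liver in turn gave log2 changes of -0.29 to 0.30 for miR-19a-3p, -0.85 to 0.12 for miR-19b-3p, -0.037 to 0.11 for miR-20a-5p and -0.10 to 0.018 for miR-93-5p. The sign turned without CON 4 for the miR-19 pair, without CON 1 for miR-20a-5p, and without MO 3 or MO 4 for miR-93-5p. Ratio differences whose sign turned were -0.24 to 0.042 for miR-18a-5p over miR-17-5p (MO 4, MO 5 or CON 3 left out), -0.26 to 0.25 for miR-19b-3p over miR-17-5p (CON 4) and -0.077 to 0.17 for miR-106b-3p over miR-106b-5p (MO 1, CON 1, CON 3 or CON 6). The cause of the other moves was not tested. The 3 lowest members, at 10 to 49 reads per liver, are limited by depth.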
